A study of Mus musculus with 89 samples.

Results

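The comparison set the lungs of BALB/c mice beside those of C57BL/6 mice that had gone through the same allergen and ozone exposure, gene by gene across the whole array. The members were the 10 arrays of that exposure: all 6 labelled BALB/c and 4 of the 5 labelled C57BL/6, out of 89 arrays in the series. All animals were males aged 7 to 8 weeks. They received the allergen Aspergillus fumigatus (Af), a mould, intraperitoneally on days 0 and 7 and intranasally on day 13, breathed ozone at 3 ppm for 2 h, and were killed 96 h after the last allergen dose, which was 12 h after the ozone. Both strains carry surfactant protein D, which a knockout line of the series lacks. RNA came from the left lung lobe, which the sample labels call whole lung homogenate. It was amplified with a NuGEN kit and hybridised to GeneChip HT Mouse430PM plates. The reference exposure was air alone, with 5 BALB/c and 6 C57BL/6 arrays from mice that had breathed air for 2 h, without allergen. No statement links an array to a separate animal beyond its replicate number, so p-values here measure the spread between arrays. The number of arrays limits the precision of every value.

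In a sensitised lung, inhaled mould allergen draws a type 2 response: lymphocytes and innate cells release interleukins 4, 5 and 13, eosinophils enter, and the airway lining turns towards mucus. The lining of the conducting airways is made of club cells, which secrete protective proteins and metabolise foreign compounds, of ciliated cells, whose beating clears mucus, and of mucous (goblet) cells. Gas is exchanged across flat alveolar type 1 cells and the capillary endothelium beneath them, while alveolar type 2 cells make surfactant. Ozone is an oxidant gas that injures ciliated and alveolar type 1 cells in particular. BALB/c and C57BL/6 are inbred strains that differ in their MHC haplotype and in many immune genes.

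The array labelled C57BL/6 replicate 1 was left out because it carried BALB/c markers. The strain of each array was placed with 40 genes chosen on the air arrays, on a scale where the C57BL/6 air mean lies at -1 and the BALB/c air mean at 1. The 4 C57BL/6 arrays used stood between -0.83 and -0.46 and the 6 BALB/c arrays between 0.51 and 0.96, with BALB/c replicate 1 lowest. The left-out array stood at 0.71. Because that choice rests on values, the counts for the main gene groups are also given with the array kept. Lung identity was present on all 10 arrays: Sftpc, the surfactant protein of type 2 cells, read 12.26 to 12.96, Scgb1a1, the main club cell secretion, 12.22 to 13.09, and Ager, of type 1 cells, 10.64 to 12.71, on a log2 scale whose values over the whole table run from 1.86 to 13.54. Sftpd itself read 11.01 ± 0.25 (SD, n = 6) in BALB/c and 10.62 ± 0.27 (n = 4) in C57BL/6, and was not called (difference 0.38 ± 0.57 SE, limma adjusted p = 0.668).

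Strain separated the arrays broadly. Of 15061 genes tested, 1684 differed between the strains at an adjusted p under 0.05 (limma, Benjamini-Hochberg), which is 11.2% of them. In BALB/c 1032 were higher (6.85% of genes tested) and 652 lower (4.33%). The value ranges of the groups did not overlap, BALB/c being higher, for 866 genes (5.75%), and did not overlap with BALB/c lower for 531 (3.53%). The median difference over all genes tested was 0.05. With the left-out array kept, 943 genes passed, of which 928 were among the 1684. Leaving out C57BL/6 replicate 2, which stood apart from the other arrays on the second principal component, gave 1035 calls. With BALB/c replicate 1 left out the count was 2043. That replicate lay nearest to the C57BL/6 arrays on the first principal component, which held 41.5% of the variance.

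A measure of array quality differed in mean between the strains, though not past its test. The hybridisation control level, the mean of 10 probe sets for bacterial RNA added at a fixed amount, was 10.08 ± 0.95 (SD, n = 6) on the BALB/c arrays and 11.05 ± 0.34 (n = 4) on the C57BL/6 arrays (difference -0.97, exact permutation test over 210 splits, two-sided p = 0.0905, adjusted over 2 measures 0.181). The difference between 3′ and 5′ beta-actin probe sets, a sign of RNA quality, was 3.08 ± 0.66 and 2.93 ± 0.29 (exact p = 0.690). With the hybridisation control level in the fit, 1219 genes passed, 637 higher (4.23%) and 582 lower (3.86%), and 1090 of them were calls in the same direction without it. Counts with that covariate are given beside the main gene groups, and its part in the results was not tested further. Within BALB/c, arrays with a higher control level stood nearer to the C57BL/6 arrays on the first principal component. They ran from -49.94 at a level of 8.90 to 8.76 at 11.53, the last being replicate 1. The C57BL/6 arrays, at 27.11 to 68.05, did not follow that order.

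**Figure D1:**
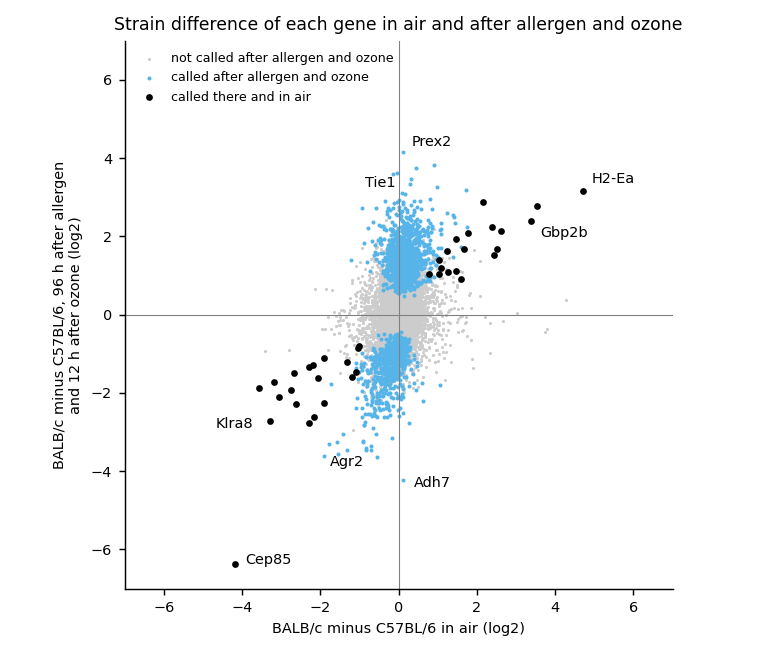
Each point is 1 of the 15061 genes tested, with its BALB/c minus C57BL/6 difference in air on the horizontal axis and after allergen and ozone on the vertical axis, both in log2 units. Genes called after allergen and ozone (blue) mostly lie near 0 in air, while the 39 called in both (black) have the same sign on both axes, with Cep85 at the far lower left and H2-Ea at the far right.

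A small set of genes differed between the strains with or without the exposure. In air 78 genes passed (0.518% of those tested), 36 higher (0.239%) and 42 lower (0.279%) in BALB/c, and 39 of these also passed after allergen and ozone, each in the same direction, 19 higher and 20 lower in BALB/c. They were 50% of the air calls and 2.32% of the calls after allergen and ozone, and the comparisons share no array. Of the 39, 26 are among the 40 genes that placed each array by strain and so led to 1 array being left out, which makes their agreement no independent evidence, and 13 are not. With the array kept, 29 genes passed in both, all in the same direction and all among the 39. H2-Ea, Cep85, Klra8, Serpina1b, Nnt, Ifi213, Trim12a and Trim30d, described next, belong to the 40. H2-Ea, which encodes the alpha chain of the MHC class II E molecule and is silent in the b haplotype of C57BL/6, read 7.46 to 9.27 in BALB/c (median 8.64) and 5.97, 5.29, 5.37 and 4.71 on C57BL/6 replicates 2, 3, 4 and 6. The groups did not overlap, and the difference was 3.17 ± 0.49 (SE; adjusted p = 8.09e-06), against 4.70 in air. Another H2-Ea probe set differed by 6.06 and the last, low in both strains, by 0.54, so the size depends on the probe set.

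Cep85, which encodes a centrosome protein, showed the largest difference of any named gene. It read 3.35 to 5.03 in BALB/c (median 4.50) and 10.84, 10.10, 11.20 and 10.83 in C57BL/6, a difference of -6.38 ± 0.55 (adjusted p = 2.06e-14). In air the difference was -4.19. The other probe set of Cep85 differed by -0.43 (adjusted p = 0.236), so the large value belongs to 1 probe set. It was not shown for the transcript as a whole. Probe sequences were not checked against either strain, for this gene or any other. The left-out array read 3.34, and with it kept Cep85 passed, as did H2-Ea, Klra8 and Serpina1b, each with a smaller difference. Klra8, which encodes the natural killer receptor Ly49H of C57BL/6 mice, read 3.18 to 3.80 in BALB/c (median 3.51) and 4.83, 8.79, 4.61 and 6.57 in C57BL/6 (difference -2.72 ± 0.58, adjusted p = 0.00101; in air -3.29). Its level varied far more among the C57BL/6 arrays than among the BALB/c arrays. Serpina1b, an alpha-1-antitrypsin gene from a family of near-identical copies whose probes may share transcripts, was higher in BALB/c by 2.77 ± 0.71 (adjusted p = 0.00719), and Nnt, the mitochondrial transhydrogenase gene that is truncated in the C57BL/6J substrain, by 1.09 (adjusted p = 0.00436). Lower in BALB/c in both settings were also the interferon-inducible gene Ifi213 (-2.29; in air -2.63) and the tripartite motif genes Trim12a (-1.87; in air -3.56) and Trim30d (-2.10; in air -3.06); the last pair were chosen after their values were seen.

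Genes of motile cilia were lower in BALB/c. Of the 14 list members tested, 9 were lower, beside 4.33% of all genes tested, and none higher. The median difference was -1.59, beside 0.05 over all genes. All 14 members had a negative sign. Foxj1, the transcription factor that switches on the motile cilium programme, read 3.65 to 5.36 on the BALB/c arrays (median 4.36) and 6.67, 5.55, 6.53 and 8.01 on the C57BL/6 arrays. No C57BL/6 array fell as low as the highest BALB/c array, and the difference was -2.28 ± 0.46 (adjusted p = 0.000442). Rsph4a and Rsph1, both radial spoke head proteins of the axoneme, were lower by 2.44 and 2.04 (adjusted p = 0.000289 and 4.93e-06). Other members called were Hoatz (-3.26), Lrrc23 (-2.17), Cfap126 (-2.11), Tekt1 (-1.61), Ccdc39, which sets the spacing of dynein arms (-1.57), and the dynein heavy chain gene Dnah9 (-1.25). Ccdc113, Dnah11, Hydin, Spag6l and Tppp3 did not pass, with differences from -1.32 to -0.58.

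Of the 15 largest lower differences, 5 outside the list were chosen here, after their values were seen, for a known part in cilia or ciliated cells. Ccdc153, a coiled-coil protein of ciliated cells, read 5.53 to 7.83 in BALB/c (median 6.47) and 9.93, 10.08, 9.67 and 10.24 in C57BL/6, a difference of -3.45 ± 0.43 (adjusted p = 3.48e-08). The C57BL/6 arrays lay within a narrow band well above every BALB/c array. Cfap43 (-3.45) and Cfap65 (-3.22), both proteins of the sperm tail and ciliary axoneme, Lrrc6 (-3.24), needed to assemble dynein arms, and the cadherin-related Cdhr4 (-3.41) were lower too, each with groups that did not overlap. With the hybridisation control level in the fit 11 ciliated list members were lower, with the left-out array kept 9, and when single arrays were left out 7 to 10. On the left-out array Foxj1 read 5.02 and Ccdc153 7.76, inside the BALB/c range for both. In bulk lung RNA, fewer cells of a type and less RNA per cell cannot be told apart, here or for the groups below.

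Promoters of genes lower in BALB/c were searched for the X-box, the palindromic site of the RFX factors that serve cilium genes, since the group moved together. The windows ran from 250 bases before to 50 after each RefSeq gene start (GRCm38.p6), and both strands were read. The longer form searched was GTTNCC, any pair of bases, then its reverse complement GGNAAC, where N is any base. The shorter form, which overlaps it, was CC, any pair of bases, then GGNAAC. No other motif was tried. The longer form occurred in 143 of 27025 genes with a window (0.529%), in 0.690% of genes tested, in 8 of 497 genes lower in BALB/c (1.61%) and in 1 of 808 higher (0.124%). The shorter form occurred in 7.15% of all, 8.67% of tested, 14.7% of lower (73) and 6.68% of higher genes (54). Of the 14 ciliated list members with a window, none held the longer form and 3 the shorter, and none of the 6 of these that were lower in BALB/c held either. A match describes letters only.

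The 200 bases before the start are shown for 4 of the 8 lower genes with the longer form, those with a known part in cilia, chosen after their values were seen; capitals mark the match. Pifo, a protein at the base of primary cilia, lies on the minus strand with this stretch at chr3:106001498-106001697, and was lower by 1.38 (difference -1.38 ± 0.47, adjusted p = 0.0418). Cfap298, needed for dynein arm assembly (chr16:90934850-90935049, minus strand), differed by -0.96 (adjusted p = 0.0278). Bbs7, a subunit of the BBSome that carries cargo into cilia (chr3:36613390-36613589, minus strand), differed by -0.94 (adjusted p = 0.0173). Mks1, of the gate at the cilium base (chr11:87853015-87853214, plus strand), differed by -0.77 (adjusted p = 0.0297). The matches begin 20, 188, 121 and 24 bases before the gene start in that order.
Pifo: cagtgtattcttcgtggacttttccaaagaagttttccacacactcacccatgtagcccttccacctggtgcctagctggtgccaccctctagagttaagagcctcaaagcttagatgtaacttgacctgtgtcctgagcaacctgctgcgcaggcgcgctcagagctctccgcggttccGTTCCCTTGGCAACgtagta
Cfap298: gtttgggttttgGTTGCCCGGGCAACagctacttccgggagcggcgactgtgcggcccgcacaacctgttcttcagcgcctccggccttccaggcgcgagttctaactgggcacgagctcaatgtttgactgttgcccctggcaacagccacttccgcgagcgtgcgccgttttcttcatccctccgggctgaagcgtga
Bbs7: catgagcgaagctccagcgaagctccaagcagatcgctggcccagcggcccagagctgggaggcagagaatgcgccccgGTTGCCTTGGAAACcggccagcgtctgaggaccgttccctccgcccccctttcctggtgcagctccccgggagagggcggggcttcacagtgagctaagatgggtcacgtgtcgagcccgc
Mks1: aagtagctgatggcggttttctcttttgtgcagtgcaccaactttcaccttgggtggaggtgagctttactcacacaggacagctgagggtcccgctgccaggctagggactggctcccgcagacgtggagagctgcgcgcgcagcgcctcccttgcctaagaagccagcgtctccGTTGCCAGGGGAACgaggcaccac

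Mucus and goblet cell genes were also lower in BALB/c: 8 of 16 members tested, beside 4.33% of all genes tested. None was higher, and the median difference was -1.22. Agr2, the chaperone that folds mucins, read 4.73 to 7.59 in BALB/c (median 5.80) and 9.84, 9.05, 9.18 and 9.91 in C57BL/6, without overlap (difference -3.63 ± 0.59, adjusted p = 1.89e-05). Clca1, a secreted protein induced with mucus production, read 5.07 to 10.42 in BALB/c (median 8.41) and 9.72, 10.78, 11.84 and 12.46 in C57BL/6. Here the groups overlapped and the BALB/c arrays ranged widely (difference -3.06 ± 0.93, adjusted p = 0.0235). The secreted mucins Muc5ac and Muc5b differed by -2.51 and -2.00 (adjusted p = 0.00268 and 0.0110), and Fcgbp, a protein of the mucus gel, by -2.56. Foxa3 (-1.64) and Spdef (-0.80), transcription factors of the goblet cell programme, passed as well, as did Retnlb (-1.28). The membrane mucin Muc1 (0.27) and the anion exchanger Slc26a4 (-0.57) did not. Without C57BL/6 replicate 6, the array highest for Muc5ac, Muc5b and Clca1, 4 members passed. With the hybridisation control level 10 did, with the left-out array kept 7, and in a fit on the compared groups alone 4.

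Club cell and secretory genes split by member. Of 15 tested, 8 were lower and 1 higher in BALB/c, beside 4.33% and 6.85% of all genes tested. The median was -1.85. Reg3g, an antibacterial lectin, read 4.89 to 9.61 in BALB/c (median 6.37) and 8.52, 9.42, 11.12 and 12.01 in C57BL/6 (difference -3.62 ± 0.91, adjusted p = 0.00594), and the groups overlapped. Bpifb1, of the bactericidal and permeability-increasing fold family, read 7.43 to 10.15 (median 8.82) against 10.56, 11.27, 12.23 and 12.41, with no overlap (-2.78 ± 0.55, adjusted p = 0.000386). It was also lower in air (-2.29). Bpifa1 (-3.46), Scgb3a1 (-2.51), Lypd2 (-2.39), Gabrp (-2.38), Aldh3a1 (-2.10) and Scgb3a2 (-1.85) passed too. Scgb1a1, at 12.68 ± 0.29 in BALB/c and close to the top of the scale in both strains, differed by -0.19 (adjusted p = 0.613), and the club cell enzyme Cyp2f2 by -0.80 (adjusted p = 0.360). Fmo2, a flavin monooxygenase, was the higher member (2.18 ± 0.68, adjusted p = 0.0259), and did not pass with the hybridisation control level in the fit. Without BALB/c replicate 6, or C57BL/6 replicate 4 or 6, 5 members were lower, with the left-out array kept 7, and with the hybridisation control level 8, with none higher in the last pair of settings.

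Adh7, which encodes a retinol and alcohol dehydrogenase of surface epithelia, showed the second largest lower value among named genes. It read 3.75 to 5.20 in BALB/c (median 4.14) and 9.42, 8.03, 8.20 and 8.40 in C57BL/6. The difference was -4.23 ± 0.72 (adjusted p = 5.16e-05), and a second probe set differed by -2.14 (adjusted p = 0.00258). Across the other exposures with both strains the C57BL/6 mean of Adh7 lay between 3.73 and 6.56, so the mean of 8.51 after allergen at 96 h and ozone was its highest. Gsto1, a glutathione transferase, was lower in BALB/c by 2.28 (9.13 ± 0.49, n = 6, against 11.41 ± 0.45, n = 4; difference -2.28 ± 0.36, adjusted p = 1.36e-05). Ltf, which encodes lactoferrin and was listed among neutrophil genes though glandular epithelium also makes it, was lower by 2.08 (adjusted p = 0.0229), and Pigr, which carries IgA across epithelium, by 1.81 (adjusted p = 0.00503).

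**Figure D2:**
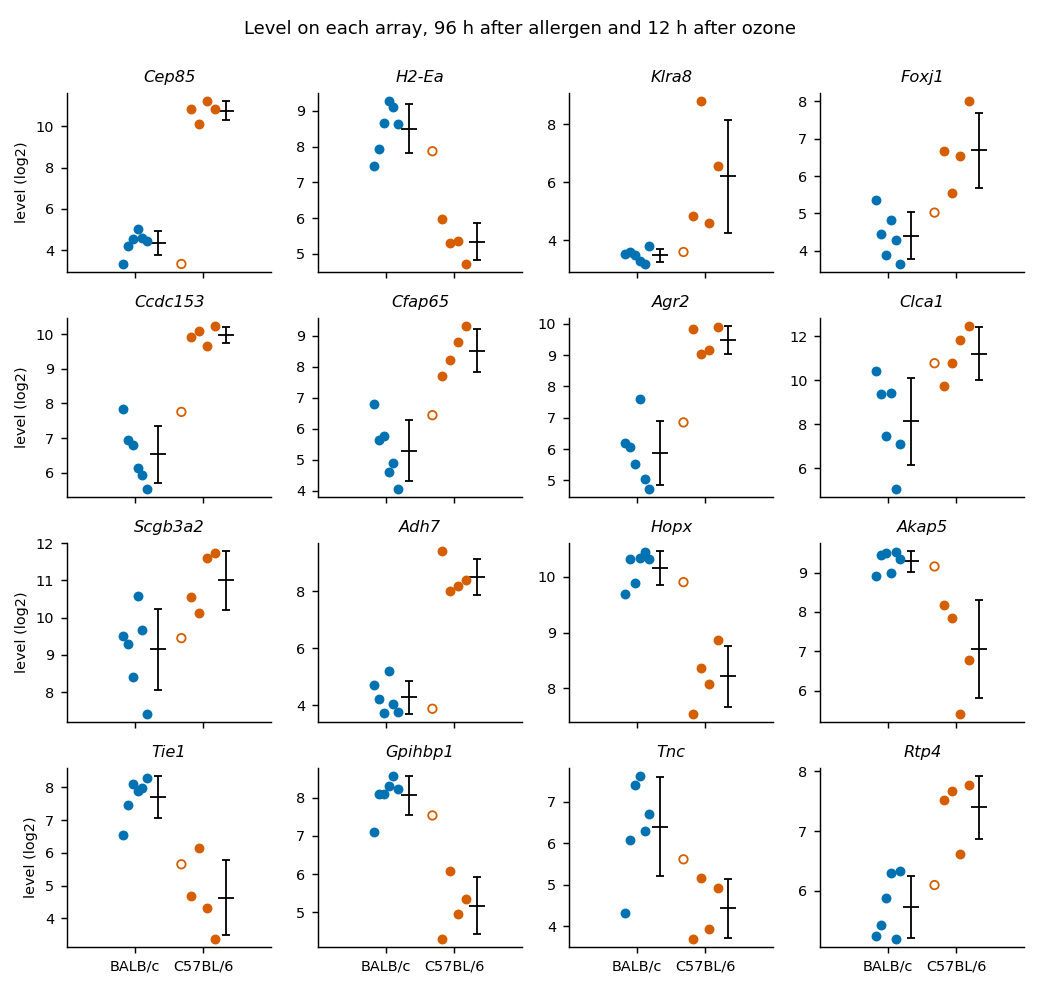
Level (log2) of 16 genes on each array after allergen and ozone, with BALB/c in blue (6 arrays), C57BL/6 in orange (4 arrays), the left-out array as an open circle, and black bars for the mean and SD of the arrays used. Foxj1, Ccdc153, Agr2 and Adh7 lie lower in BALB/c and Hopx, Akap5, Tie1 and Gpihbp1 higher, without overlap, while Clca1, Scgb3a2 and Tnc overlap.

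Alveolar type 1 cell genes ran the other way. Of 11 tested, 8 were higher in BALB/c, beside 6.85% of all genes tested, and none lower. The median was 0.94, and all 11 had a positive sign. Hopx, a homeobox regulator of type 1 cells, read 9.69 to 10.45 in BALB/c (median 10.32) and 7.55, 8.36, 8.09 and 8.87 in C57BL/6 (difference 1.95 ± 0.51, adjusted p = 0.00853). Akap5, a kinase anchoring protein, read 8.92 to 9.51 (median 9.40) against 8.18, 7.83, 5.41 and 6.77 (2.24 ± 0.50, adjusted p = 0.00168). In both genes the BALB/c arrays were tightly grouped above all C57BL/6 arrays. Cav1, of caveolae (1.38), Clic5 (1.31), Emp2 (1.04), Ager (0.94), Vegfa (0.94) and Pdpn (0.91) passed as well, and the water channel Aqp5 (0.46), Cav2 (0.88) and Igfbp2 (0.63) did not. The count was 6 with the hybridisation control level or with the left-out array kept, and 5 without C57BL/6 replicate 2 or replicate 4 or after cyclic loess. Of 16 type 2 cell and surfactant genes, 3 were higher, beside 6.85% of all genes tested, with a median of 0.57. They were Etv5 (1.34), the lipid importer Cd36 (1.16) and Lpcat1, which makes surfactant phospholipid (1.04). The other Cd36 probe sets differed by 1.61 and -0.01, and the other Lpcat1 probe sets past the filter by 0.62, 0.04 and -0.85. None of these was called. Lpcat1 did not pass without C57BL/6 replicate 2, where it read 9.27, and the type 2 count was 1 there, without BALB/c replicate 4, with the hybridisation control level, with the compared groups alone or with all probe sets of a gene averaged. It was 3 with the left-out array kept. Sftpc (0.36) and Abca3 (0.57) did not pass.

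Endothelial genes were higher in BALB/c in 12 of 22 members, beside 6.85% of all genes tested, with none lower. The median was 1.19, and 20 of the 22 had a positive sign. Tie1, a receptor kinase of blood vessel endothelium, read 6.54 to 8.29 in BALB/c (median 7.94) and 4.68, 6.16, 4.31 and 3.39 in C57BL/6 (difference 3.08 ± 0.78, adjusted p = 0.00651). Gpihbp1, which holds lipoprotein lipase on capillaries, read 7.09 to 8.58 (median 8.16) against 4.30, 6.08, 4.95 and 5.33 (2.90 ± 0.57, adjusted p = 0.000396). Plvap, of the diaphragms of fenestrated endothelium, read 7.92 to 9.16 (median 8.77) against 5.17, 7.18, 4.94 and 6.60 (2.73 ± 0.58, adjusted p = 0.000913). No array of either strain crossed into the other group in these 3 genes. Cd34 (2.73), the angiopoietin receptor Tek (2.64), Lyve1 of lymphatic vessels (2.26), Cd93 (2.16), Car4 (2.16), the tight junction gene Cldn5 (1.70), Eng (1.24), Nos3 (1.15) and Bmpr2 (0.99) made up the rest. Kdr, the main VEGF receptor, differed by 0.07 (adjusted p = 0.886), Cdh5 by 0.71 (adjusted p = 0.189) and Pecam1 by 1.14 (adjusted p = 0.0711). The count was 8 with the hybridisation control level, 9 with the left-out array kept, and 8 without C57BL/6 replicate 4.

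Of 24 matrix genes, 22 had a positive sign, and the median was 1.15. In BALB/c 10 were higher, beside 6.85% of all genes tested, and none lower. They were the fibrillar collagen gene Col1a1 (1.74), elastin (Eln, 1.78), fibronectin (Fn1, 1.55), Tnc (1.97), Postn (1.87), Timp3 (1.78), the cross-linking enzymes Lox (2.19) and Loxl1 (1.23), Sparc (1.27) and Bgn (1.07). Fn1 read 8.04 to 9.85 in BALB/c (median 9.40) and 7.35, 7.11, 8.37 and 8.19 in C57BL/6 (1.55 ± 0.34, adjusted p = 0.00141). Tnc, a matrix protein of injured and remodelling tissue, read 4.31 to 7.62 (median 6.50) against 3.70, 5.15, 3.94 and 4.92 (1.97 ± 0.53, adjusted p = 0.0107). The groups overlapped in both genes only through BALB/c replicate 1, which was the lowest BALB/c array. Among the 14 members that did not pass, Col1a2, Col5a1 and Dcn lay between -0.04 and 0.02. Postn did not pass without C57BL/6 replicate 3, nor Tnc without C57BL/6 replicate 2. With the hybridisation control level, and with the left-out array kept, 9 members passed; array weights gave 16.

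Single genes outside the lists reached larger values. Prex2, an exchange factor for Rac, read 7.88 to 8.79 in BALB/c (median 8.58) and 3.50, 4.09, 4.20 and 5.40 in C57BL/6. The difference of 4.17 ± 0.94 (adjusted p = 0.00210) was the largest higher value among named genes. A second Prex2 probe set averaged 5.63 in BALB/c and 6.29 in C57BL/6, differed by -0.66 and was not called. The large value thus belongs to 1 probe set, and the second was the brighter of them in C57BL/6. Itga8, an integrin chain of contractile and alveolar fibroblasts, read 6.76 to 8.88 (median 8.43) against 3.95, 4.09, 5.37 and 4.49 (3.75 ± 0.76, adjusted p = 0.000545). Reck, a membrane inhibitor of matrix metalloproteinases, read 7.26 to 8.09 (median 7.52) against 3.84, 3.35, 3.60 and 5.29 (3.59 ± 0.71, adjusted p = 0.000399). Most C57BL/6 values of Prex2 and Reck fell under 4.45, the level used to remove dim probe sets, so their sizes are approximate. Also among the 15 largest higher differences were Scel (3.82), Megf9 (3.61), Hmcn1 (3.47), Cdh11 (3.35), Bmper (3.25) and Armcx4 (3.20). Plpp1 (3.11), Stbd1 (2.96), Lamb1 (2.92) and Tmod3 (2.90) were among them too. A second Tmod3 probe set differed by 0.07 and was not called. All C57BL/6 values of Hmcn1 (at most 3.94), Bmper (at most 4.11), Megf9 (at most 4.18) and Stbd1 (at most 4.27) lay under 4.45. These sizes are approximate too. A second Cdh11 probe set, at 7.29 in BALB/c and 7.75 in C57BL/6, differed by -0.46 and was not called. Cdh11 did not pass without C57BL/6 replicate 2 or with all probe sets of a gene averaged. In air none of the genes of this paragraph was called, and their strain differences there ran from -0.34 (Tmod3) to 1.72 (Armcx4).

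Complement genes were higher in 7 of 20 members, with a median of 0.57. Over all genes tested 6.85% were higher, which is the share to set beside the counts of this paragraph. C1s1, a protease of the first component, read 4.50 to 7.34 in BALB/c (median 7.13) and 3.77, 3.10, 4.95 and 4.58 in C57BL/6; the overlap came from BALB/c replicate 1 (2.56 ± 0.53, adjusted p = 0.000684). Serping1, the inhibitor of that component (2.24), C1qa (2.16), C1ra (1.91), C2 (1.77), Cfp (1.21) and Cfb (1.08) passed too. The counts were 4 with the hybridisation control level, 3 with the compared groups alone, 6 with the left-out array kept, 3 without BALB/c replicate 4, BALB/c replicate 6 or C57BL/6 replicate 4, and 4 without BALB/c replicate 3 or C57BL/6 replicates 3 or 6. Among macrophage genes, 5 of 21 alveolar macrophage and lipid handling members were higher (median 0.76): Cd68 (2.24), Car4 (2.16), which the endothelial list also holds, Gpnmb (1.42), Abcg1 (1.32) and Ctsd (1.24). That count was 3 with the hybridisation control level, 4 with the left-out array kept, and 3 without BALB/c replicates 4 or 6 or C57BL/6 replicate 6. Of 17 monocyte and interstitial macrophage genes 4 were higher (Lyve1, C1qa, Ly6c1 and Ace). Lyve1 is also counted in the endothelial list and C1qa in the complement list, so these are not separate calls. The count was 1 without C57BL/6 replicate 4 and 2 without C57BL/6 replicates 3 or 6. It was 2 with the hybridisation control level or with the left-out array kept. Of 17 genes of alternatively activated macrophages 3 were higher (Mrc1, Stab1 and Fn1, which the matrix list also holds). That count fell to 1 without C57BL/6 replicate 3, with the left-out array kept, or with the hybridisation control level, and was 2 without BALB/c replicates 3 or 6 or C57BL/6 replicate 6. The abundant marker Retnla differed by -0.05 (adjusted p = 0.932), and Arg1 by -0.55 (adjusted p = 0.552).

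Interferon-stimulated genes were lower in BALB/c in 9 of 24 members, beside 4.33% of all genes tested. None was higher, and the median was -0.69. Rtp4, a chaperone of membrane receptors that interferon induces, read 5.19 to 6.33 in BALB/c (median 5.65) and 7.52, 7.67, 6.61 and 7.77 in C57BL/6 (-1.67 ± 0.39, adjusted p = 0.00317). Oasl2, of the oligoadenylate synthetase family, read 4.14 to 5.58 (median 5.24) against 8.47, 5.83, 6.10 and 8.03 (-1.98 ± 0.58, adjusted p = 0.0173). The C57BL/6 arrays were far apart for Oasl2, with replicates 2 and 6 highest, and no array overlapped in either gene. Ifit1 (-1.88), Oas2 (-1.49), Rsad2 (-1.43), Oas1g (-1.40), Mx1 (-1.16), Irf7 (-1.09) and Ifi27l2a (-1.02) passed as well, whereas Ifit2 (0.62), Ifit3 (0.35) and Stat2 (-0.22) did not. The count fell to 3 with the left-out array kept or without C57BL/6 replicate 6, to 4 without C57BL/6 replicate 2, and to 6 without C57BL/6 replicate 4. It was 10 with the hybridisation control level. A second Rtp4 probe set differed by 0.10 and was not called. A separate list of interferon-inducible GTPase and Schlafen genes did not lean the same way. Its median was 0.43 over 18 members tested, 12 with a positive and 6 with a negative sign. In it 1 was higher (Slfn4, 1.80) and 1 lower (Slfn8, -1.71), beside 6.85% and 4.33% of all genes tested. With the hybridisation control level 0 were higher and 2 lower.

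Among leukocyte and type 2 lists the share of calls varied. Over all genes tested 6.85% were higher and 4.33% lower in BALB/c. Tslp, an epithelial cytokine that starts type 2 responses, was higher in BALB/c, at 5.40 to 6.09 (median 5.77) against 4.22, 3.60, 3.37 and 3.58 (2.08 ± 0.57, adjusted p = 0.0121). Il13, the cytokine that drives mucus production, was lower, at 4.16 to 4.92 (median 4.41) against 5.14, 5.46, 5.79 and 5.08 (-0.90 ± 0.27, adjusted p = 0.0231). Both sets of values lay low on the scale, and Il13 did not pass with the hybridisation control level (adjusted p = 0.0559) or with the left-out array kept (adjusted p = 0.0550). Of the 13 type 2 cytokine and receptor genes tested these were the only calls, and Il33 differed by -0.47 (adjusted p = 0.638). Among 7 eosinophil genes tested, 3 were lower: Ccr3, the eotaxin receptor (-1.36), Cd24a, which epithelium also makes (-1.35), and Epx, eosinophil peroxidase (-0.71). Ccr3 read 2.61 to 3.81 in BALB/c, all under 4.45, and 3.77 to 5.79 in C57BL/6, so its size is approximate. Epx read 3.73 to 3.97 in BALB/c (median 3.92) and 4.33, 5.71, 4.12 and 4.28 in C57BL/6, all but 1 value under 4.45. The eosinophil granule genes Prg2 and Prg3 did not pass the filter, Siglecf differed by 0.26, and the count was 2 without C57BL/6 replicate 2 or 3 and 1 with the left-out array kept or with the compared groups alone. With the hybridisation control level it was 3. Beside Ltf, none of the 15 neutrophil genes passed, S100a8 and S100a9 differing by 0.20 and 0.79. T cell genes (15 tested) and the chemokines that attract eosinophils and monocytes (13 tested) gave no call in limma, with 4 and 3 members at an unadjusted p under 0.05. In MHC class II 1 of 14 genes passed, H2-Ea, and in MHC class I 1 of 14, H2-Q2 (lower, adjusted p = 0.0214). These counts and that of the neutrophil list are near the shares of all genes tested.

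Antioxidant genes went both ways, with 3 of 25 higher and 3 lower. Sod3, the extracellular superoxide dismutase, was higher by 2.75 ± 0.71 (adjusted p = 0.00730), Gpx3 by 1.22 and Nnt by 1.09. Lower were Slc7a11, the cystine transporter (-1.92), Gpx2, the epithelial glutathione peroxidase (-1.24), and Me1, which makes NADPH (-1.09). For Slc7a11, C57BL/6 replicate 3 read 7.62 and the other C57BL/6 arrays 4.10 to 4.59. All its BALB/c values (at most 3.61) lay under 4.45, so its size is approximate. The counts were 3 and 3 with the hybridisation control level, and 3 and 2 with the left-out array kept. Of 20 genes of eicosanoid synthesis and reception, 13 had a negative sign and the median was -0.16. The 3 higher were Ptgis, prostacyclin synthase (1.67), and the PGE2 receptors Ptger4 (1.60) and Ptger2 (1.52), and the 1 lower was the lipoxygenase gene Alox12e (-0.81). With the hybridisation control level, or with the left-out array kept, 2 were higher and none lower. Of 27 cell cycle genes 2 were higher and 1 lower, shares near those of all genes tested (6.85% and 4.33%), and 1 and 0 in either of those settings. Cholesterol and fatty acid synthesis (16 tested), stress keratins (17), leukocyte adhesion molecules (11) and chitinases (6) gave no call in limma, with 2, 3, 3 and 0 members at an unadjusted p under 0.05.

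Genes of neighbouring tissues that a lung sample can carry were checked beside these groups. The 8 cardiac muscle genes tested, which the pulmonary veins of mice express, all had a negative sign, with a median of -1.36. Of them Tnni3 (-2.58) and Ryr2 (-1.88) were lower in BALB/c, beside 4.33% of all genes tested. Both passed with the hybridisation control level and 1 of them with the left-out array kept. The mean level of that list ran from 4.57 to 7.32 on the BALB/c arrays and from 4.73 to 9.35 on the C57BL/6 arrays. Without C57BL/6 replicate 4, the array highest for them, neither gene passed. Skeletal muscle (12 tested), fat (6) and thymus and lymph node genes (10) gave no call in limma and no member at an unadjusted p under 0.05. In air the skeletal muscle list had a median strain difference of 2.27, with no call and 10 of 12 members at an unadjusted p under 0.05. Of 12 liver-type genes only Serpina1b passed after the exposure. The part of the cardiac list in the other results was not tested.

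**Figure D3:**
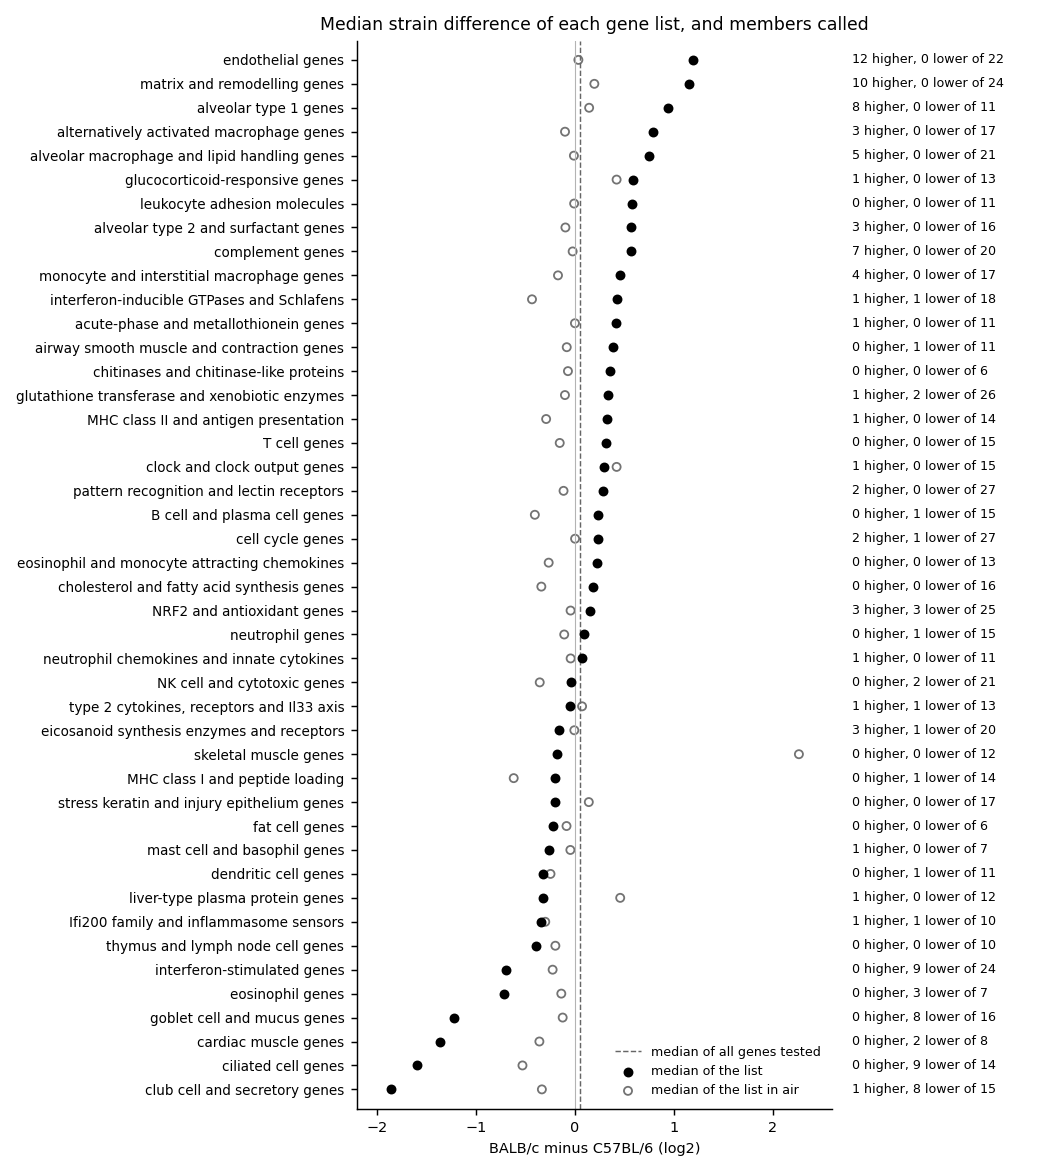
Median BALB/c minus C57BL/6 difference (log2) of 44 gene lists after allergen and ozone (filled circles) and in air (open circles), with the median of all genes tested as a dashed line and the members called after allergen and ozone written at the right. Endothelial, matrix and alveolar type 1 lists lie highest, at 1.19, 1.15 and 0.94, and the club, ciliated, cardiac and goblet lists lowest, at -1.85, -1.59, -1.36 and -1.22.

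In air few members of these groups were called. There, 1 member of the club cell list (Bpifb1) and none of the ciliated, goblet, alveolar type 1, endothelial, matrix, complement or interferon-stimulated lists passed in limma. At an unadjusted p under 0.05 there were 0 such members in the first 4 of these lists and in complement, and 1 each in matrix and interferon-stimulated genes. The air medians were -0.53 for ciliated, -0.12 for goblet, 0.15 for alveolar type 1 and 0.04 for endothelial genes. The mean level of the ciliated list was 6.08 to 6.65 in BALB/c and 6.52 to 6.99 in C57BL/6 in air, and 5.28 to 6.03 and 6.62 to 8.31 after allergen and ozone. The BALB/c arrays thus stood below their air range and 3 of the 4 C57BL/6 arrays above theirs. Goblet genes were above the air range on all arrays of both strains, at 5.33 to 6.58 in BALB/c and 6.44 to 8.55 in C57BL/6, against 4.76 to 5.08 and 4.89 to 5.21. The endothelial list was below its air range in both strains and further below in C57BL/6: 8.46 to 8.83 and 8.49 to 8.96 in air, and 7.29 to 7.99 and 6.08 to 6.67 after the exposure. The matrix list of C57BL/6 read 7.64 to 8.03 in air and 6.60 to 6.96 after the exposure, while 5 of the 6 BALB/c arrays stood between 7.85 and 8.42 against 8.02 to 8.11 in air, and BALB/c replicate 1 at 7.14. These levels are descriptions, with no test of a list, and the test of the change from air, given next, called no member of the lists in this paragraph.

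**Figure D4:**
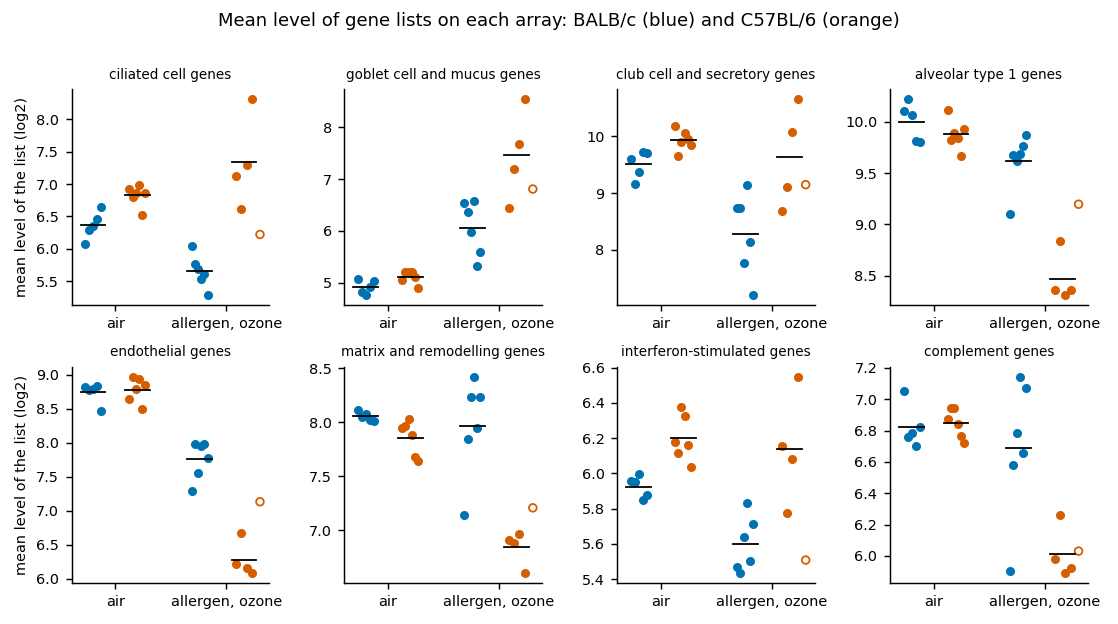
Mean log2 level of 8 gene lists on each array, for BALB/c (blue) and C57BL/6 (orange) in air and after allergen and ozone; lines are group means and the open circle is the left-out array. The strains lie close together in air for the endothelial list (8.46 to 8.96 over both) and apart after the exposure, where the left-out array reads 7.13, nearer to the BALB/c arrays.

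The change of the strain difference was tested directly as the difference after allergen and ozone minus that in air. It passed for 20 genes (0.133% of those tested; 1905 at an unadjusted p under 0.05), 8 in the higher (0.0531%) and 12 in the lower direction (0.0797%). Adh7 moved most: its strain difference was 0.12 in air and -4.23 after the exposure, a change of -4.35 ± 0.98 (adjusted p = 0.0377). Other genes with a change in the lower direction were Cdhr4 (-2.58), Cfap65 (-2.32), the fibroblast protease Fap (-2.18), Ttc25, which docks dynein arms (-2.08), and Odf3b (-1.99). Arhgap30 led the higher direction: it read 6.38 to 7.86 in BALB/c (median 7.15) and 3.84, 3.05, 4.23 and 6.57 in C57BL/6, and the change was 3.66 ± 0.79 (adjusted p = 0.0308). Fendrr, a long noncoding RNA of lung mesenchyme (3.30), Klhl6 (2.73) and Gria3 (2.62) followed. Chil3, the chitinase-like protein Ym1 of macrophages, was lower in BALB/c in air (-1.85) and 0.66 after the exposure (adjusted p = 0.291), a change of 2.51 ± 0.58 (adjusted p = 0.0425). Vegfd did likewise, from -2.13 to 0.65 (change 2.78 ± 0.56, adjusted p = 0.0193).

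This test was less stable than the strain difference itself. With the left-out array kept no gene passed in limma, with 1421 at an unadjusted p under 0.05. The count was 2 without BALB/c replicate 5, and 3 without BALB/c replicate 6, BALB/c air replicate 6 or C57BL/6 air replicate 3. Without C57BL/6 replicate 6 it was 35. A fit on the 4 groups alone called 956. No change passed for Foxj1 (-1.95, adjusted p = 0.207), Agr2 (-3.07, adjusted p = 0.0888), Tie1 (2.93, adjusted p = 0.252) or Hopx (1.51, adjusted p = 0.359). For these genes a strain difference was called after the exposure and not in air, but a change between them was not shown. The hybridisation control level (8.14 to 10.61) and the actin difference (1.43 to 2.34) of the air arrays lay mostly below those of the arrays compared here (8.90 to 11.53 and 2.10 to 3.79).

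**Figure D5:**
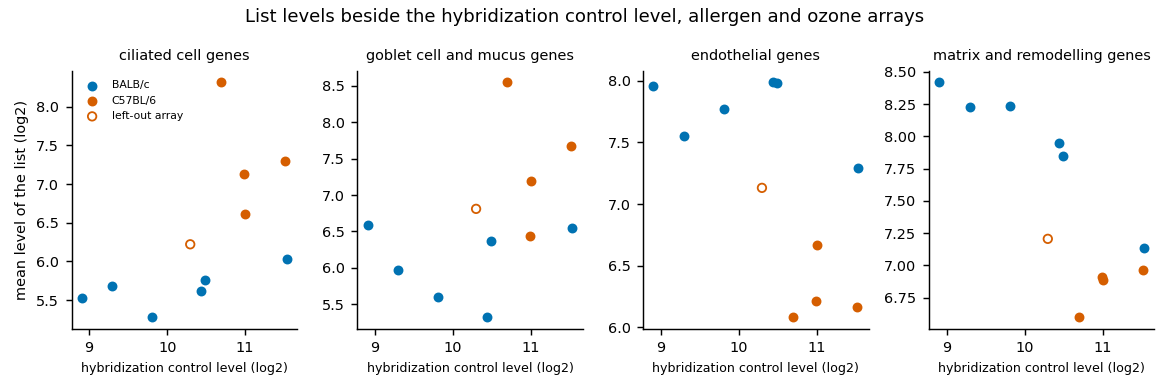
Mean log2 level of 4 gene lists against the hybridisation control level (log2) of each allergen and ozone array, with BALB/c in blue, C57BL/6 in orange and the left-out array as an open circle. The BALB/c arrays spread from 8.90 to 11.53 in control level and the C57BL/6 arrays from 10.69 to 11.51; the part of that level in the list differences was not tested.

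Where genes had several probe sets past the filter, these often disagreed in size. Among 485 such genes higher in BALB/c, all probe sets had the same direction in 273 (56.3%) and all were called in 57. Among 180 lower genes the numbers were 132 (73.3%) and 26. In 14 higher and 3 lower genes another probe set was called in the opposite direction. Of 97 genes picked by rule for this comparison, 96 called and Sftpd not, 47 kept their side of the threshold in every alternative that could be run, of up to 22, with Sftpd among the 47. No called gene of the 97 changed sign. Prex2, Reck, Foxj1, Agr2, Adh7, Ccdc153, Hopx, Gpihbp1 and Plvap were among the 47.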

How the data were processed

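The authors deposited 1 table of log2 expression values for 45141 probe sets and 89 arrays, per the file headers. All columns had the same quartiles (3.82, 4.90 and 6.42), and the software and normalization behind them are not given in the sources used here. Of the probe sets 28898 carried 1 gene symbol, 551 several, 15588 none and 104 were controls, by the platform annotation. Each gene was represented by its probe set of highest mean (17097 genes), and a gene was tested if 4 or more arrays exceeded log2 4.45, which is percentile 40 of the whole table.

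A limma group-means model (R 4.3.3, limma 3.58.1) was fitted to 88 arrays of 18 groups, without the C57BL/6 array of replicate 1, and p-values were adjusted by Benjamini-Hochberg over the 15061 genes tested, with 70 residual degrees of freedom. Differences are BALB/c minus C57BL/6 in log2 units. Named genes were the 15 largest differences in each direction, the 6 largest changes from air in each direction (gene models passed over), the 3 largest calls of each list, Sftpd, and members of lists; exceptions are stated. The members and lists were chosen with earlier results of these data known. Replicate numbers were not shown to pair the arrays: of 4 same-numbered pairs, 0 had deviations correlated above 0.1. So few pairs cannot exclude a pairing.

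On simulated data with 100 genes changed per size, the strain test recovered 26% of changes of 1 log2 unit and 87% of changes of 2, with 10 false calls, and the test of the change from air 4% and 57%, with 2 false calls (15061 genes each). The number of arrays limits the precision. Alternatives covered the left-out array, normalization, filter, probe sets, covariates, array weights, a replicate block and single arrays left out. Figures were drawn with matplotlib 3.10.9 in Python 3.11.15.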

Additional observations from a re-analysis of the deposited data

Results flagged for a closer look

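The 218 groups of values examined were those of the named genes, the hybridisation control level, the actin difference and the strain scale. Of them 22, all of named genes, held 1 array far from the others of its group, 15 in BALB/c and 7 in C57BL/6. The measure was the gap to the nearest array over the whole range. Chance gives such a value in about 1 in 20 independent groups, but these groups share the same arrays and are not independent. Of these, 13 were low values of BALB/c replicate 1: C1s1 at 4.50, Cdh11 at 4.69, Clec4n at 3.61, Cry2 at 5.82, Epx at 3.73, Fn1 at 8.04, Gpihbp1 at 7.09, Il18 at 4.17, Kit at 5.21, Lox at 6.03, Mcm2 at 4.67, Megf9 at 5.93 and Plpp1 at 6.62. That replicate also had the highest hybridisation control level of the BALB/c arrays (11.53), and the part of that level was not tested. The other BALB/c values were Ifi203 on replicate 3 at 7.07 and Wdr75 on replicate 5 at 2.73. In C57BL/6, replicate 2 stood apart for Lpcat1 (9.27) and Ptger4 (4.64), replicate 3 for Epx (5.71), Macrod2 (8.10) and Slc7a11 (7.62), and replicate 6 for H2-Q2 (4.35) and Odf3b (8.77).

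The strain difference after allergen and ozone differed from that in air, by limma's test of the change itself at an adjusted p under 0.05, for 12 named genes. The change was -4.35 for Adh7, -2.58 for Cdhr4, -2.32 for Cfap65, -2.18 for Fap, -2.08 for Ttc25 and -1.99 for Odf3b. It was 3.66 for Arhgap30, 3.30 for Fendrr, 2.78 for Vegfd, 2.73 for Klhl6, 2.62 for Gria3 and 2.51 for Chil3.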

How the results depend on the processing

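The 1684 strain calls after allergen and ozone became 943 with the left-out array kept, and 1035 to 2043 when each array was left out in turn. The other 11 alternatives gave 1219 to 2402 calls. The share of higher calls depended on the setting: 1032 higher and 652 lower as reported, 637 and 582 with the hybridisation control level in the fit, and 867 and 653 after cyclic loess. The 20 changes from air became 0 with the left-out array kept (1421 at an unadjusted p under 0.05), 54 without the 5 arrays whose markers went against their labels, 956 with the compared groups alone, 38 with the hybridisation control level, 31 with the actin difference, 1217 with array weights and 74 with the hybridisation control level and without those 5 arrays, the last chosen after seeing the data. Leaving out single arrays gave 2 to 35. The 78 air calls became 480 with the compared groups alone, 123 with the hybridisation control level, 1229 with array weights, 147 with that level and without those 5 arrays, and 60 to 84 with single arrays left out. The causes of these moves were not tested. With the replicate number as a block, 1652 strain calls, 2 changes from air and 67 air calls were found; the numbers were not shown to pair the arrays. The test of the change from air has little power for changes of 1 log2 unit at this number of arrays, and genes near log2 4.45 have approximate differences.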
